A study of Homo sapiens with 9 samples.

Results

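Integrins and laminins are the receptors and the matrix proteins by which epithelial cells hold on to a basement membrane. They were described here as the protein-coding genes of a deposited expression table whose symbols are those of integrin alpha chains, integrin beta chains or laminin alpha, beta and gamma chains. The rule found 38 genes among the 45754 of the table, made up of 18 integrin alpha, 8 integrin beta and 12 laminin genes. Of these 38, 20 reached at least 1 FPKM (a fragment count divided by gene length and by library size) in at least 3 of 9 libraries and could be tested. They were 7 integrin alpha, 5 integrin beta and 8 laminin genes. None of the 20 passed through a single group alone. At the edge of this filter, ITGA2B was just inside, at 0.912 to 1.71 FPKM, while ITGA10 and ITGB7, which reached 1 FPKM in 2 libraries and in 1 library, stayed outside.

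The libraries came from human cells labelled H441, a lung adenocarcinoma line, with 3 libraries in each of 3 groups. Control cells received 0.1% DMSO, the solvent, and the other groups 10 µM of a compound named BSGL or 10 µM of a compound named RSGL, each for 24 h. The comparisons ask what each compound changed against solvent and how the compounds differ at the same dose and time. In the labels, a separate genotype tag reads H460 on control and BSGL samples but A549 on RSGL samples, so that an effect of RSGL and a difference behind this tag cannot be told apart by the labels. The number of genes at 5 FPKM or more in every control library and at 0.1 FPKM or less in every RSGL library was 0, and the reverse pattern was met by 0 genes as well. What count different cell lines would give was not tested.

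An integrin is a pair of an alpha and a beta chain that spans the membrane and links matrix outside to actin or keratin inside. The alpha chain largely sets which ligand is bound: ITGA3 and ITGA6 bind laminins, ITGA2 binds collagens, and ITGA5 and ITGAV bind proteins with an RGD motif such as fibronectin. A laminin is a cross-shaped trimer of an alpha, a beta and a gamma chain, and epithelia make trimers that hold LAMA3 and LAMB3 and trimers of LAMA5, LAMB1 and LAMC1.

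The libraries held 16720414 to 18738947 fragments in genes, and 12213 to 12338 genes reached 1 FPKM in a library. The first principal component, with 59.6% of the variance, placed the RSGL libraries at 30.3 to 31.2 and the other 6 libraries at -16.5 to -14.2. Lung lineage genes for which H441 is known, NKX2-1 and the surfactant proteins among them, passed the filter in 0 of 9 cases, and their summed level was 1.06 to 2.29 FPKM in each library. All 12 genes of a list typical of KEAP1-mutant lung lines passed, with sums of 4328 to 4437 FPKM in control, 4040 to 4122 under BSGL and 2401 to 2479 under RSGL. ALDH1A1 was the largest part of these sums, at means of 1961 FPKM in control and 762 under RSGL. Against control 10 of the 12 were called lower under RSGL and 2 higher, AKR1C1 (30.5 to 34.0 FPKM) and TXNRD1 (430 to 468). The sum of 6 epithelial markers was 1065 to 1093 FPKM in control, 1057 to 1106 under BSGL and 741 to 779 under RSGL, and nearly all of it was KRT8 and KRT18. Of the 4 tested, KRT8 (651 to 428 FPKM in the means of control and RSGL), KRT18 (416 to 325) and CDH1 (8.01 to 5.19) fell, and KRT19 rose (2.05 to 4.07). EPCAM stayed under the filter, at 0.363 FPKM in control and 0.528 under RSGL. Leukocyte markers passed in 1 of 7 cases (CORO1A), with PTPRC at no more than 0.0046 FPKM in any group's mean. Endothelial markers passed in 0 of 7 cases, and platelet markers in 1 of 4 (GP1BA). Fibroblast markers passed the filter in 3 of 9 cases, with sums of 9.95 to 11.4 FPKM in control, 10.4 to 11.1 under BSGL and 7.93 to 8.21 under RSGL; COL1A1 (2.22 to 0.668 FPKM) and THY1 (3.44 to 2.84) fell, and LUM (4.65 to 4.38) did not pass the test. Basal markers passed the filter in 1 of 5 cases, SOX2, which fell from 8.17 to 1.85 FPKM. Their sums, most of which was SOX2, were 8.28 to 9.51 FPKM in control, 8.25 to 8.61 under BSGL and 2.42 to 2.55 under RSGL. KRT5, KRT14 and TP63 were at no more than 0.158 FPKM in any group's mean, and their means were lower under RSGL than in control. In each of them control and RSGL libraries overlapped, and none was tested. NGFR, under the filter as well, went the other way, at 0.243 FPKM in control and 0.585 under RSGL. The part of these marker shifts in the results below was not tested.

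Windows before the start sites of 5 member genes are shown, 4 of genes that rose and 1 of a gene that did not pass. ITGA2, ITGA5, ITGA6 and ITGB5 are integrin genes that were higher under RSGL and whose listed start lay within 30 bases of the gene's end in the deposited table. LAMA3 is the laminin chain that did not pass the test while its partner chain LAMB3 rose, and its listed start lies 183577 bases inside the gene. It thus did not meet the rule of 30 bases used for the other 4. ITGAV and LAMA5, which did not pass either, had starts 7 and 6 bases from the gene's end, and their windows are not shown. The windows shown are therefore no comparison of genes that rose with genes that did not. Each window holds the 250 bases before the start on the gene's own strand, from RefSeq on GRCh38.p14, and a window was listed for 26 of the 38 genes and for 15 of the 20 tested. ITGA2 is at chr5:52989102-52989351 on the plus strand, ITGA5 at chr12:54419267-54419516 on the minus strand, ITGA6 at chr2:172427086-172427335 on the plus strand, ITGB5 at chr3:124901419-124901668 on the minus strand and LAMA3 at chr18:23872770-23873019 on the plus strand. Capitals mark matches, on either strand, to the letters searched: TGANTCA for AP-1, GGGCGG for SP1, TGACGTCA for CRE, TGATGNAA for ATF4, GGAATG for TEAD and CAGACA for SMAD.
ITGA2: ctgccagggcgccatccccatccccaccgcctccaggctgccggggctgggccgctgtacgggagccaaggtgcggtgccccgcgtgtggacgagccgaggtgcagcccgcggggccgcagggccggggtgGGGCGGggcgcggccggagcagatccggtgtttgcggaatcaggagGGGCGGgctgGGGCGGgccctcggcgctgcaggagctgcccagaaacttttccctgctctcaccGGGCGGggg
ITGA5: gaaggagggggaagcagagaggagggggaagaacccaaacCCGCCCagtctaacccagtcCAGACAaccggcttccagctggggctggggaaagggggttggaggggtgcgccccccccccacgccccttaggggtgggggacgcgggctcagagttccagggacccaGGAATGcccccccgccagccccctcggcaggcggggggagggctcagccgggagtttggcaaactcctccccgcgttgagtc
ITGA6: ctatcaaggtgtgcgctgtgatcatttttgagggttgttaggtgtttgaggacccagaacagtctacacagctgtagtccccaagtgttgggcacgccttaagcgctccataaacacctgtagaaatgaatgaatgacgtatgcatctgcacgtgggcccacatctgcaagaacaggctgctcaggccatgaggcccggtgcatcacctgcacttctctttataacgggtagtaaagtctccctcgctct
ITGB5: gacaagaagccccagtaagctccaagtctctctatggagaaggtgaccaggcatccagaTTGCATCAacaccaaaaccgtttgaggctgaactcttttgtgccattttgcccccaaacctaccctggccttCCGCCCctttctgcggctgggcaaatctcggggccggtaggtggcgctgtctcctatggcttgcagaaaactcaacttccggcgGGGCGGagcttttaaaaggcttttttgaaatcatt
LAMA3: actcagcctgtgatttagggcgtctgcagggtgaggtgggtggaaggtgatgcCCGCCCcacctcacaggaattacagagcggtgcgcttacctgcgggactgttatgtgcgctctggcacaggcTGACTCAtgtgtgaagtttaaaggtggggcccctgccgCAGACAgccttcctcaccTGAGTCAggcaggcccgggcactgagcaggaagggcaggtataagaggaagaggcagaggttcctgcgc

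The ITGA2 window held 4 matches to the SP1 letters and none to the others. The ITGA5 window held 1 match each to the SP1, TEAD and SMAD letters, the ITGB5 window 2 to SP1 and 1 to ATF4, and the ITGA6 window none to any of the 6. The LAMA3 window held 2 matches to the AP-1 letters, 1 to SP1 and 1 to SMAD, and was the only window with AP-1 letters among the 15 tested genes that had one. Of the 11 genes that rose under RSGL 8 had a window, and the AP-1 letters stood in 0 of these 8 and the SP1 letters in 6. Over all 15 tested genes with a window, those that rose included, the AP-1 letters stood in 1 and the SP1 letters in 10. Where a member had several windows, these counts used the start nearest the gene's end. A difference between genes that rose and the others was not tested. Among 27305 genes with a window of the same length, counted on the window listed first for each, the SP1 letters stood in 42.3%, SMAD in 13.6%, TEAD in 11.9%, AP-1 in 6.6%, ATF4 in 3.19% and CRE in 1.77%. Counted in that same way, the 26 member genes with a window held the SP1 letters in 50% and AP-1 in 3.85%. A match is a description of letters and not a bound site.

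Under RSGL the integrins and laminins rose more often than they fell. Of the 20 genes tested 11 rose and 2 fell against control, and 7 did not pass, by limma with Benjamini-Hochberg adjustment over all 12775 genes tested. Between the RSGL and control groups 54.8% of all genes tested were called, 27.2% higher and 27.6% lower under RSGL. The 13 of 20 is thus close to the background in number, while 11 of the 13 lay on the higher side. A difference of at least 1 in log2(FPKM + 1), that is 2-fold on this scale, was reached upward by 5 of the 20, among them ITGA3, ITGA2, ITGB3 and ITGB5, where 1.79% of all genes rose by as much, and downward by 0 of the 20, where 1.42% of all genes did. The median difference over the 20 genes was 0.25 in log2(FPKM + 1), against -0.00085 over all genes tested. The libraries of the 2 groups did not overlap in 14 of the 20 genes and in 61.2% of all genes. In RNA from whole cultures, fewer cells of a kind and less RNA per cell cannot be told apart.

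**Figure D1:**
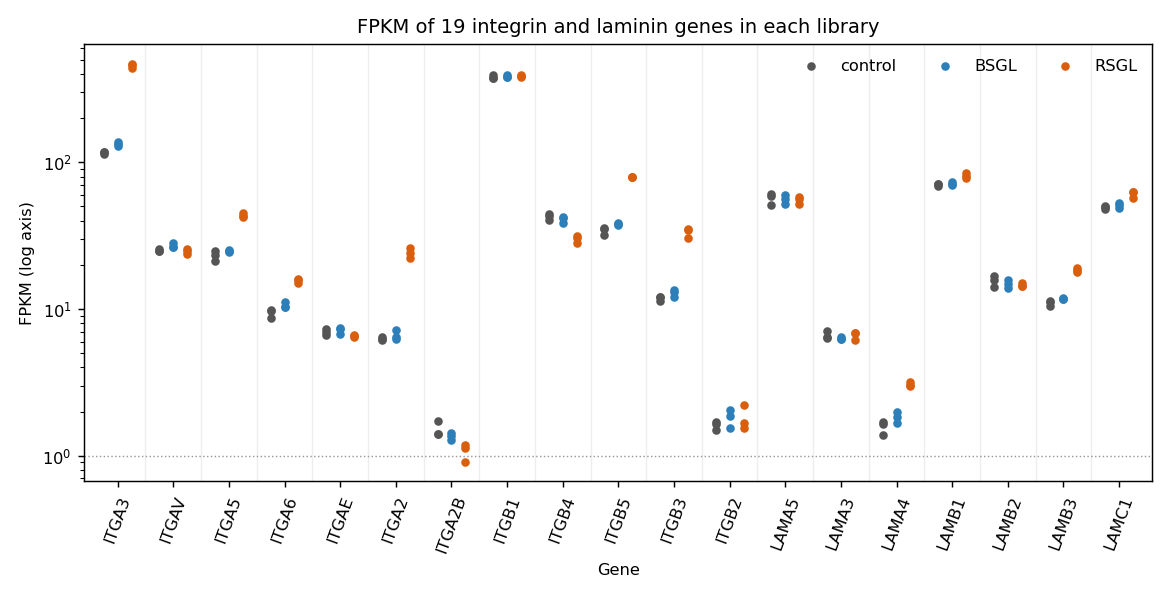
FPKM on a log axis of 19 of the integrin and laminin genes that were tested, 1 point per library, with control in grey, BSGL in blue and RSGL in orange, and the filter of 1 FPKM as a dotted line. The RSGL points stand clear of both other groups in ITGA3, ITGA2, ITGB3 and ITGB5, and the groups lie together in ITGB1, LAMA3, LAMA5 and LAMB2.

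**Figure D2:**
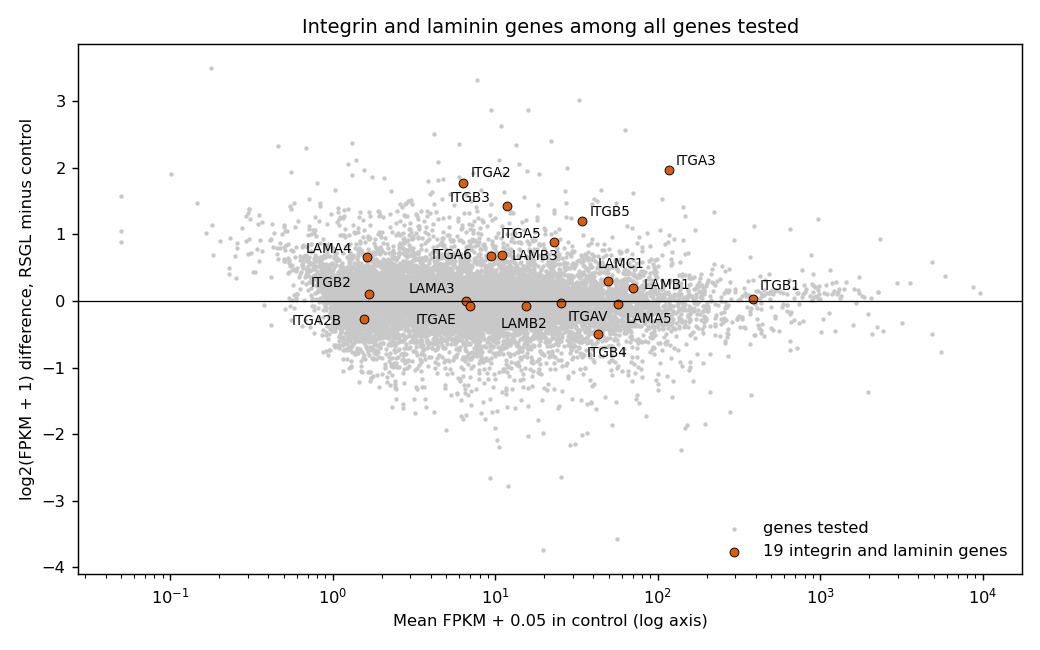
Difference in log2(FPKM + 1) between RSGL and control against mean FPKM plus 0.05 in control on a log axis, with the genes tested in grey and 19 of the integrin and laminin genes in orange. ITGA3, at 116 FPKM in control and 1.96 on the log2 scale, is the highest of the 19.

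Among the laminin-binding integrins ITGA3 and ITGA6 rose, and ITGA3 had the largest difference of the 20 genes. ITGA3, the alpha chain that pairs with ITGB1 in a receptor for epithelial laminins, was the most abundant alpha chain, with 118, 118 and 113 FPKM in the control libraries and 129, 137 and 133 under BSGL. In the RSGL libraries it stood at 463, 469 and 439 FPKM, so that the 3 groups did not overlap at any point. Its mean rose from 116 ± 2.63 to 457 ± 15.5 FPKM (SD, n = 3), a ratio of 3.92 and a log2 difference of 1.96 (95% interval 1.88 to 2.04, adjusted p = 4e-10 by limma). Its share of the summed FPKM of all integrin alpha genes was 60.8% ± 0.0442 in control and 79.4% ± 0.135 under RSGL. ITGA3 (gene ID 3675) lies on chromosome 17 at 50055968 to 50090485 (GRCh38).

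ITGA6, which forms laminin receptors with ITGB1 or ITGB4, had 8.72, 9.69 and 9.79 FPKM in control, 10.3, 11.1 and 10.4 under BSGL and 15.8, 16.0 and 15.1 under RSGL. All RSGL values lay above the others, and the rise over control was 0.68 in log2(FPKM + 1) (SE 0.0509, adjusted p = 2.54e-06 by limma). ITGB4, the partner of ITGA6 in hemidesmosomes, which tie the basement membrane to keratin filaments, went the other way. Its values were 44.2, 43.3 and 40.5 FPKM in control, 38.5, 41.9 and 42.1 under BSGL and 30.5, 31.4 and 28.4 under RSGL. The RSGL libraries were the lowest without overlap, and ITGB4 fell by 0.49 on the log2 scale (SE 0.0512, adjusted p = 2.67e-05 by limma). The ratio of ITGB4 to ITGA6 in FPKM was thus 4.56 ± 0.471 in control, 3.85 ± 0.185 under BSGL and 1.92 ± 0.0438 under RSGL. ITGA6 (3655) lies on chromosome 2 at 172427354 to 172506455 and ITGB4 (3691) on chromosome 17 at 75721328 to 75757819. The other laminin-binding alpha chain, ITGA7, known from muscle, stayed under the filter at means of 0.376 to 0.444 FPKM.

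Of the 4 collagen-binding alpha chains 1 was tested. ITGA2, which pairs with ITGB1, had 6.47, 6.27 and 6.15 FPKM in control, 6.26, 7.22 and 6.46 under BSGL and 25.9, 24.0 and 22.4 under RSGL. The control and BSGL values overlapped and the RSGL values stood far above both. The rise over control was 1.78 on the log2 scale (95% interval 1.64 to 1.92, adjusted p = 1.44e-08 by limma), a ratio of 3.82 in mean FPKM. ITGA2 (3673) lies on chromosome 5 at 52989326 to 53094779, and the gene of another collagen receptor, ITGA1, ends 35.7 kb before it. ITGA1 was at 0.449, 0.457 and 0.608 FPKM in the means of control, BSGL and RSGL and was not tested. ITGA10 was at 0.760, 0.651 and 1.03 FPKM, and ITGA11 was at no more than 0.0866 FPKM in any group's mean.

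Among the RGD-binding alpha chains, ITGA5, the fibronectin receptor chain, had 24.8, 23.2 and 21.2 FPKM in control, 24.7, 24.6 and 25.2 under BSGL and 43.3, 44.8 and 42.5 under RSGL. It rose by 0.89 on the log2 scale (SE 0.0503, adjusted p = 3.54e-07 by limma), with no overlap of RSGL and the rest. ITGAV, the chain shared by several vitronectin and TGF-beta-activating receptors, averaged 25.2 ± 0.587 FPKM in control, 27.0 ± 1.01 under BSGL and 24.6 ± 0.893 under RSGL, and its difference between RSGL and control did not pass (-0.03, 95% interval -0.12 to 0.06, adjusted p = 0.565 by limma). ITGA2B, the platelet chain that pairs with ITGB3, was near the filter, at means of 1.51 FPKM in control, 1.35 under BSGL and 1.07 under RSGL. It fell by 0.27 on the log2 scale (adjusted p = 0.0163 by limma), a call that was lost without control replicate 1 (adjusted p = 0.0639) and without RSGL replicate 1 (adjusted p = 0.0636). Its difference was -0.46 with a pseudocount of 0.1 and -0.50 with limma-voom on recovered fragments. ITGA8 held 0 fragments in each library. ITGA5 (3678) lies on chromosome 12 at 54395261 to 54419266 and ITGAV (3685) on chromosome 2 at 186590063 to 186680902.

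The beta chains differed among themselves. ITGB1, the common partner of the matrix-binding alpha chains, was the most abundant of the 38 genes in control, with 375, 395 and 377 FPKM in control, 381, 394 and 382 under BSGL and 397, 381 and 389.7 under RSGL. The groups overlapped throughout, and RSGL differed from control by 0.02 on the log2 scale (95% interval -0.05 to 0.09, adjusted p = 0.541 by limma). The sign of this small value turned to -0.014 when the libraries were rescaled to a common sum. A pseudogene on chromosome 19, ITGB1P1, was listed at 41.4, 39.2 and 41.2 FPKM in the group means. Reads of ITGB1 and of such a copy may be split between them, which makes the level of ITGB1 uncertain.

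ITGB3 and ITGB5, which pair with ITGAV in vitronectin receptors, rose. ITGB3 had 11.3, 12.0 and 12.0 FPKM in control, 12.0, 13.4 and 13.0 under BSGL and 34.8, 35.1 and 30.4 under RSGL. It rose by 1.43 on the log2 scale (95% interval 1.29 to 1.57, adjusted p = 5.75e-08 by limma), and the RSGL libraries lay apart from the rest. ITGB5 had 35.2, 31.9 and 35.5 FPKM in control, 37.3, 38.8 and 37.9 under BSGL and 79.7, 79.7 and 79.6 under RSGL. Its 3 groups did not overlap, and it rose by 1.20 (95% interval 1.11 to 1.29, adjusted p = 1.42e-08 by limma). The ratio of ITGB3 to ITGAV in FPKM was 0.467 ± 0.0186 in control and 1.35 ± 0.0669 under RSGL, and that of ITGB5 to ITGAV 1.36 ± 0.109 and 3.23 ± 0.116. ITGB3 (3690) lies on chromosome 17 at 47253842 to 47312711 and ITGB5 (3693) on chromosome 3 at 124761948 to 124901411. A lncRNA on the other strand, THCAT158, overlaps ITGB3 over 9269 bases and had mean levels of 0.599, 0.547 and 1.51 FPKM in control, BSGL and RSGL. Whether the counting used strand was not stated, so reads of such partners cannot be told apart.

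As a whole, the integrin alpha genes summed to 192 ± 4.46 FPKM in control, 213 ± 6.16 under BSGL and 576 ± 19.3 under RSGL. The integrin beta genes summed to 474 ± 9.58, 480.3 ± 9.68 and 535 ± 8.10 FPKM. The summed alpha level was below the summed beta level in control and above it under RSGL. ITGA3 alone made up 116 FPKM of the alpha sum in control and 457 FPKM under RSGL. ITGB1 held 80.6% ± 0.722 of the beta sum in control and 72.7% ± 0.817 under RSGL.

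**Figure D3:**
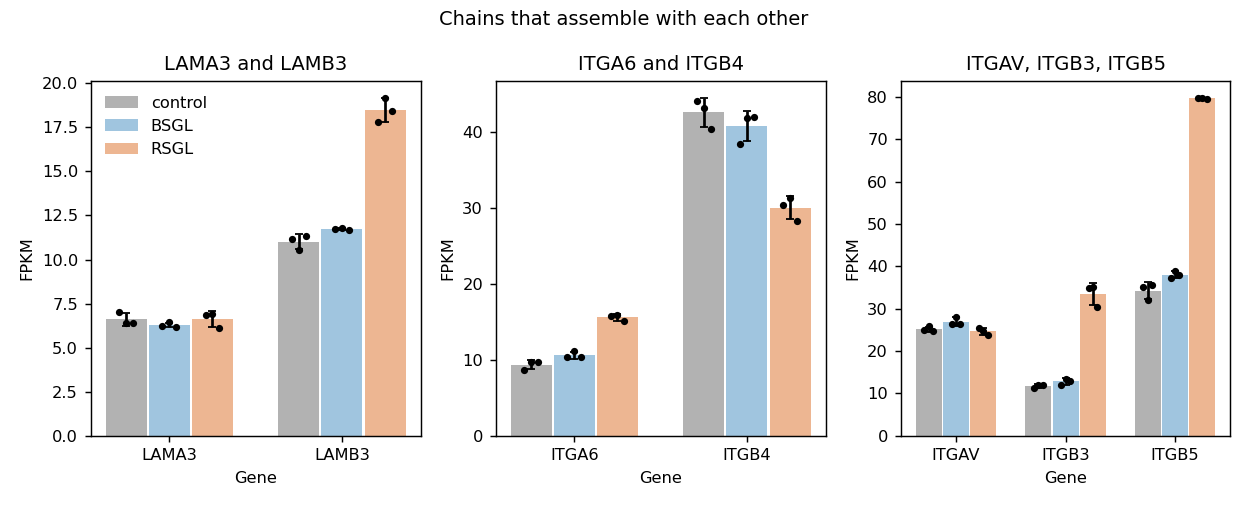
FPKM of chains that assemble with each other, with bars for the group means, error bars for the SD over 3 libraries, and points for the libraries. LAMB3 rises under RSGL and LAMA3 stays between 6.12 and 7.02 FPKM, ITGA6 and ITGB4 move in opposite directions, and ITGB3 and ITGB5 rise beside an ITGAV of 23.7 to 28.1 FPKM.

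LAMA3 and LAMB3 assemble into a laminin that anchors epithelia and is bound by ITGA3 and ITGA6, and LAMB3 rose while LAMA3 did not pass. LAMB3, the beta chain, had 11.1, 10.5 and 11.4 FPKM in control, 11.7, 11.8 and 11.7 under BSGL and 17.8, 19.2 and 18.4 under RSGL, and rose by 0.70 (SE 0.0406, adjusted p = 4.33e-07 by limma). LAMA3, the alpha chain, averaged 6.60 ± 0.367 FPKM in control and 6.64 ± 0.448 under RSGL, a difference of 0.01 (95% interval -0.12 to 0.13, adjusted p = 0.931 by limma) whose sign changed under other scalings. In FPKM, LAMB3 stood to LAMA3 as 1.67 ± 0.0986 in control, 1.87 ± 0.0293 under BSGL and 2.79 ± 0.211 under RSGL. LAMB3 (3914) lies on chromosome 1 at 209614870 to 209653077 and LAMA3 (3909) on chromosome 18 at 23689443 to 23955066.

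The chains of the other epithelial trimer changed little or did not pass. LAMA5, the most abundant laminin alpha chain, had 60.9, 59.2 and 51.1 FPKM in control, 51.6, 56.4 and 60.0 under BSGL and 55.9, 58.1 and 52.3 under RSGL. These groups overlapped, and RSGL differed from control by -0.04 on the log2 scale (95% interval -0.21 to 0.13, adjusted p = 0.692 by limma). LAMB1, the most abundant laminin chain of all, had 71.0, 71.0 and 68.8 FPKM in control, 70.1, 73.3 and 71.5 under BSGL and 84.3, 80.2 and 78.6 under RSGL. Without overlap it rose by 0.20 (SE 0.0345, adjusted p = 0.000706 by limma). LAMC1, the widespread gamma chain, had 48.0, 50.6 and 49.2 FPKM in control, 51.5, 53.1 and 49.2 under BSGL and 63.1, 62.4 and 57.3 under RSGL, and rose by 0.30 (SE 0.0447, adjusted p = 0.000302 by limma).

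LAMA4, the alpha chain of vessel and muscle laminins, was low and rose from 1.57 ± 0.173 to 3.06 ± 0.107 FPKM (log2 difference 0.66, SE 0.0697, adjusted p = 2.9e-05 by limma). Its libraries were at 1.63, 1.70 and 1.37 FPKM in control, 1.84, 1.99 and 1.66 under BSGL and 2.99, 3.18 and 3.01 under RSGL, with the RSGL values apart. LAMB2, a beta chain prominent in kidney and at nerve-muscle contacts, averaged 15.5 FPKM in control and 14.6 under RSGL and did not pass (adjusted p = 0.321 by limma). The laminin genes summed to 233 ± 7.53 FPKM in control, 235 ± 5.93 under BSGL and 305 ± 10.2 under RSGL. LAMC1 (3915) lies on chromosome 1 at 183023460 to 183145592, LAMA5 (3911) on chromosome 20 at 62309060 to 62367318, LAMB1 (3912) on chromosome 7 at 107923799 to 108003359 and LAMA4 (3910) on chromosome 6 at 112107931 to 112254722.

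The integrins of leukocytes were low or did not pass. ITGB2, the beta chain of leukocyte integrins, averaged 1.61 FPKM in control, 1.82 under BSGL and 1.81 under RSGL, with overlapping libraries (RSGL against control adjusted p = 0.423 by limma). ITGAE, which binds E-cadherin on epithelia when made by T cells, averaged 6.96, 7.13 and 6.55 FPKM, and its difference between RSGL and control, -0.08 on the log2 scale, did not pass (adjusted p = 0.195 by limma) although the libraries of these groups did not overlap. The gene GSG2 lies within ITGAE on the other strand and was at 9.34 FPKM in control and 6.02 under RSGL. An antisense lncRNA, ITGB2-AS1, overlaps ITGB2 and was at 0.599 FPKM in control and 0.390 under RSGL. The leukocyte alpha chains ITGAL, ITGAM, ITGAX and ITGAD were each at no more than 0.551 FPKM in any group's mean.

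The 18 genes under the filter had from 0 to 330 recovered fragments per group of 3 libraries. ITGB6, the chain of an epithelial receptor that activates TGF-beta, had 35, 39 and 45 fragments in the control libraries, 38, 36 and 39 under BSGL and 5, 3 and 6 under RSGL. ITGAL had 12, 14 and 14 fragments in control, 7, 9 and 9 under BSGL and 2, 1 and 1 under RSGL. ITGA4, a chain of receptors for fibronectin and VCAM1, had 36, 38 and 39 fragments in control, 32, 27 and 38 under BSGL and 18, 19 and 9 under RSGL. ITGAX, a leukocyte alpha chain, had 29, 22 and 21 fragments in control, 30, 28 and 24 under BSGL and 50, 56 and 39 under RSGL. ITGA10 had 95, 81 and 77 fragments in control, 71, 71 and 75 under BSGL and 115, 116 and 99 under RSGL. Of the 17 genes under the filter with a fragment in any library, the FPKM of RSGL lay below control without overlap in 6 (ITGA4, ITGAL, ITGB6, ITGB7, LAMA2 and LAMC3) and above it in 2 (ITGA10 and ITGAX). Among all 17318 such genes of the table the shares were 7.89% below and 6.46% above. This share differs with level, and in either direction it was 61.2% among the 12775 genes tested. The 17 genes were not set beside genes of like fragment counts. A fit without the filter called ITGB6, ITGAL and ITGA4 lower under RSGL (adjusted p = 0.000376, 0.00137 and 0.0268 by limma) and ITGAX higher (adjusted p = 0.014). That fit called 2.74% of the 17318 genes lower, 2.70% higher, and 23.2% of all 30093 genes in either direction. ITGB7, another leukocyte beta chain, was at 0.969, 0.695 and 0.776 FPKM in the means of control, BSGL and RSGL, and ITGB8, a partner of ITGAV, at 0.126, 0.123 and 0.0721 FPKM. ITGA9 was at no more than 0.0532 FPKM in any group's mean. LAMA1 held 1 fragment over all 9 libraries, and LAMA2, LAMB4 and LAMC3 stayed at or under 0.208 FPKM in each group's mean.

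Under BSGL 0 of the 20 genes passed the test against control, where 11 of all 12775 genes, 0.0861%, were called by limma. At an unadjusted p under 0.05 there were 4 of the 20, ITGA3, ITGA6, ITGAV and ITGB5, where 6.71% of all genes lay. Each of these 4 had a higher mean under BSGL, as had LAMB3. The control and BSGL libraries of these 5 genes did not overlap, a pattern met by 12.8% of all genes. ITGA3 came nearest to the threshold, at 116 ± 2.63 FPKM in control and 133 ± 4.15 under BSGL, a log2 difference of 0.19 (95% interval 0.11 to 0.27, adjusted p = 0.184 by limma). With limma-voom on recovered fragments it passed (log2 0.18, adjusted p = 0.00948). ITGB5 differed by 0.15 (95% interval 0.06 to 0.24, adjusted p = 0.386), ITGA6 by 0.16 (95% interval 0.05 to 0.27, adjusted p = 0.546) and ITGAV by 0.09 (95% interval 0.0047 to 0.18, adjusted p = 0.718), all by limma. The median difference of the 20 genes was 0.06, against 0.0054 over all genes tested.

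**Figure D4:**
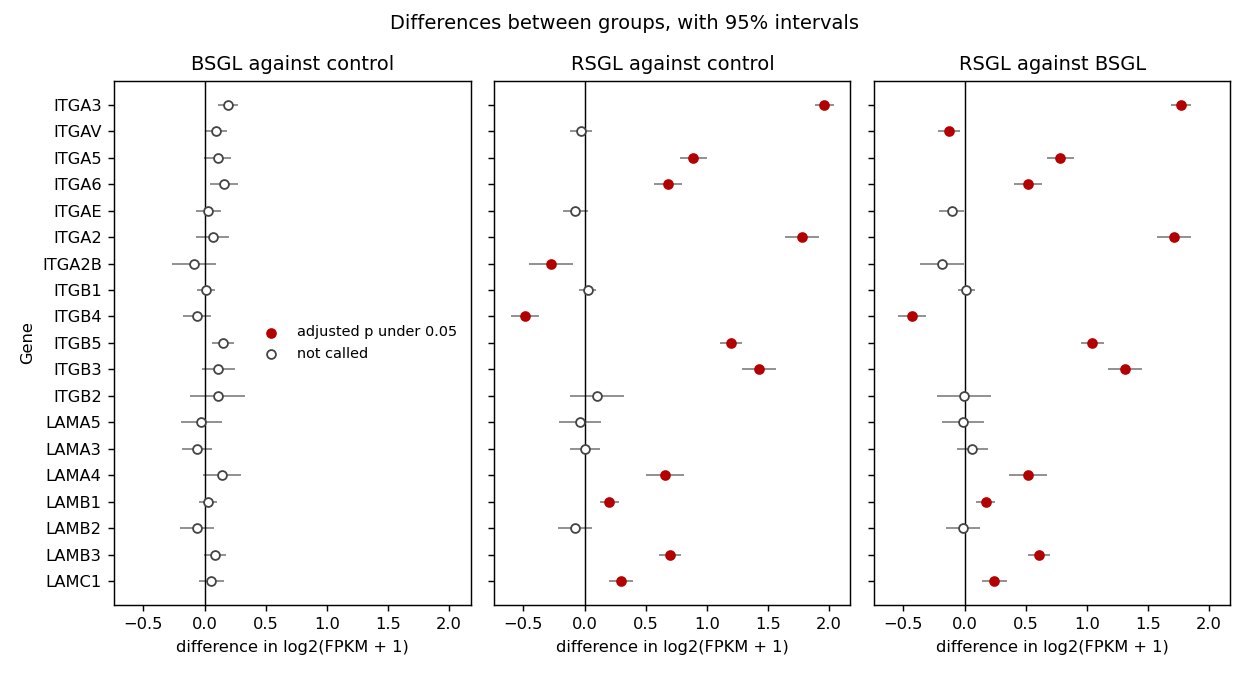
Differences in log2(FPKM + 1) of 19 of the tested genes for BSGL against control, RSGL against control and RSGL against BSGL, with 95% intervals, red where the adjusted p was under 0.05. The BSGL panel has 0 red points, and the RSGL panels have 12 each, of which 10 lie to the right of 0.

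Between the compounds, at 10 µM and 24 h each, 11 of the 20 genes were higher and 2 lower under RSGL than under BSGL by limma, together 13, against 26.5%, 27.5% and together 54.0% of all genes tested. A 2-fold difference on the log2(FPKM + 1) scale was reached upward by the same 5 genes as against control, where 1.52% of all genes did, and downward by 0 of the 20, where 1.31% of all genes did. The libraries did not overlap in 15 of the 20 and in 61.2% of all genes. The 11 that were higher were those that were higher than control as well, and both comparisons share the RSGL libraries. ITGA3 differed by 1.77 on the log2 scale (95% interval 1.69 to 1.86, adjusted p = 1.04e-09 by limma), ITGA2 by 1.71 (95% interval 1.58 to 1.85), ITGB3 by 1.32 (95% interval 1.18 to 1.45) and ITGB5 by 1.05 (95% interval 0.95 to 1.14). ITGB4 was lower under RSGL by -0.43 (SE 0.0512) and ITGAV by -0.12 (SE 0.0401, adjusted p = 0.0248 by limma). The ITGAV call was lost without BSGL replicate 2 (adjusted p = 0.0959) or RSGL replicate 3 (adjusted p = 0.08), and also with no filter (adjusted p = 0.0585) or a common sum (adjusted p = 0.0694). For ITGB1 the compounds differed by 0.01 with a 95% interval of -0.06 to 0.08, and for LAMA3 by 0.07 with a 95% interval of -0.06 to 0.19, neither of which passed.

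Genes that work with integrins and laminins were read from 7 lists of 106 genes, of which 86 could be tested. Under RSGL 27 rose and 25 fell against control by limma, together 60.5% where 54.8% of all genes tested were called, and the median difference was 0.04 against -0.00085 over all genes. Under BSGL 0 of the 86 were called. The 54.8% is made up of 27.2% higher and 27.6% lower and is the background for the share called in each list. Among 15 tested ligands of integrins other than laminins 2 rose and 8 fell, together 66.7%. THBS1, a thrombospondin bound by several integrins, fell from 14.2 to 5.69 FPKM (log2 -1.19, SE 0.0467), TGFB2, a growth factor kept latent in the matrix, from 18.6 to 8.31 FPKM (-1.08, SE 0.0404) and FN1, fibronectin, the ligand of ITGA5, from 24.8 to 16.4 FPKM (-0.57, SE 0.0588). CYR61, a matricellular ligand, rose from 46.7 to 80.4 FPKM (0.77, SE 0.0342). The median of the 15 was -0.18.

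Of 24 tested activators and adaptors on the inner side of integrins 6 rose and 7 fell, together 54.2%, which is near the background. TNS3 and TNS2, tensins that bind beta chain tails, fell from 29.7 to 10.1 FPKM (log2 -1.48, SE 0.0478) and from 9.31 to 4.38 FPKM (-0.94, SE 0.0625), and KANK2, a talin partner, from 15.5 to 9.52 FPKM (-0.65). PXN, among the 6 that rose, went from 31.6 to 48.5 FPKM (0.61, SE 0.0320). Of 12 adhesion kinases and their partners 4 rose and 1 fell, together 41.7%, beside 54.8% of all genes. Whether so short a list differs from that share was not tested. FYN, a kinase of the SRC family, rose from 1.06 to 3.11 FPKM (log2 1.00, SE 0.0711), PAK1 from 10.9 to 15.6 FPKM (0.49) and CSK, which restrains SRC kinases, from 20.5 to 23.9 FPKM (0.21), and the docking protein NEDD9 fell from 6.94 to 4.07 FPKM (-0.64).

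Basement membrane partners of laminins had 5 of 12 tested genes higher and 3 lower, together 66.7%. NID2, a nidogen that bridges laminin and type IV collagen, rose from 3.85 to 8.24 FPKM (log2 0.93, SE 0.0583) and NTN4, a netrin that binds laminin gamma chains, from 20.0 to 35.6 FPKM (0.80, SE 0.0364). COL4A1, a chain of type IV collagen, fell from 21.3 to 13.6 FPKM (-0.61, SE 0.0331) and COL18A1 from 43.9 to 32.2 FPKM (-0.44, SE 0.0468). Of 8 tested hemidesmosome and tetraspanin partners 3 rose and 1 fell, together 50%. COL17A1, at means of 0.761, 0.893 and 0.802 FPKM in control, BSGL and RSGL, KRT5 and KRT14 were under the filter and not tested. The tetraspanins CD82, from 9.43 to 18.4 FPKM, CD9, from 45.9 to 67.0 FPKM, and CD151, the partner of ITGA3, from 192 to 214 FPKM, rose, while PLEC, the plectin that joins ITGB4 to keratins, fell from 91.4 to 78.8 FPKM (log2 -0.21, SE 0.0551).

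All 6 laminin receptors other than integrins were tested, of which 2 rose and 3 fell, together 83.3%. The syndecan SDC4 rose from 40.8 to 55.6 FPKM (log2 0.44) and SDC1 from 57.5 to 64.1 FPKM (0.15), while SDC2 fell from 7.38 to 5.01 FPKM (-0.48) and BCAM, a receptor for LAMA5, from 16.4 to 12.1 FPKM (-0.40). Of 9 tested genes of integrin traffic 5 rose and 2 fell, together 77.8%. ARF6, a GTPase of recycling to the membrane, rose from 43.8 to 65.4 FPKM (0.57), and the endocytic adaptors DAB2 and NUMB by 0.41 and 0.35, and CLIC3 fell from 1.28 to 0.582 FPKM (-0.52, SE 0.158). CLIC3 was near the filter, with control libraries at 1.67, 1.17 and 1.00 FPKM and RSGL libraries at 0.732, 0.469 and 0.544.

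**Figure D5:**
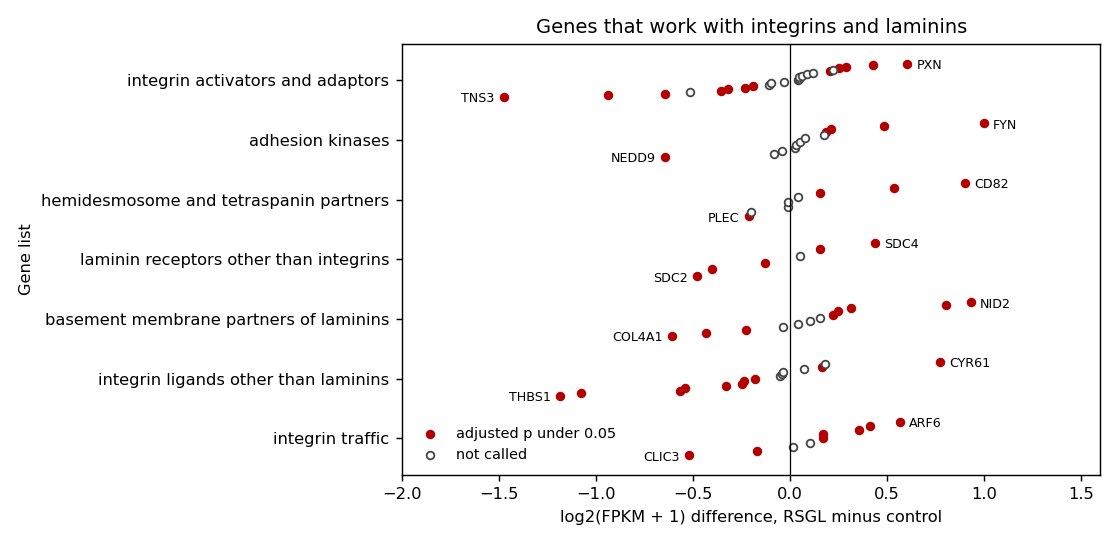
Differences in log2(FPKM + 1) between RSGL and control for 85 of the 86 tested genes of 7 lists, 1 point per gene, red where the adjusted p was under 0.05, with the lowest and the highest gene drawn of each list named. In each list red points lie on both sides of 0, and most of those of the ligands lie to the left.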

How the data were processed

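RNA was sequenced in 9 libraries, 3 per group, grouped by their titles. Control columns name the cells and a number but no compound. Per the file headers, the authors deposited FPKM with gene lengths and positions; the accessions are those of GRCh38. DESeq2 1.16.1, HISAT2 2.0.5 and featureCounts 1.5.0-p3 are named, with no role, in the submitters' processing notes. Whole fragments were recovered as multiples of 1 step per library and gene length (100% of values under 300 fragments within 0.01).

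Genes that reached 1 FPKM in 3 or more libraries were tested as log2(FPKM + 1), which understates changes of low genes, with limma 3.58.1 (R 4.3.3, statmod 1.5.0), 1 term per group, trend and robust options, and Benjamini-Hochberg adjustment over 12775 genes (threshold 0.05). The code was tested on simulated data. The values of 1 tested member and of 1 companion gene are not reported here, though both enter the counts, sums and medians. The other tested members are named, with values per library for members called under RSGL at a log2 difference of 0.3 or more and for the most abundant chains. From each companion list the 4 called genes with the largest difference are named, apart from that 1, and PXN besides. Of 106 list entries 2 were matched by gene ID. Members and lists were chosen with earlier results of these data known. Separate cultures are not stated in the labels, so p-values cover the spread of these samples alone, part of which may be technical. Alternatives changed the pseudocount, filter, scaling, model and libraries.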

Additional observations from a re-analysis of the deposited data

How the results depend on the processing

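Each of the 11 genes that rose under RSGL, and ITGB4, which fell, kept its call under each alternative tried against control, and ITGA2B lost it as stated. Against control 13 members were called under each alternative except without the filter (17, of which 5 lower against 2) and without single libraries (12 to 13, with 1 to 2 lower and 11 higher). Between RSGL and BSGL 17 were called without the filter, with 4 lower, and 12 to 14 under the other alternatives, with 1 lower for a common sum and 1 to 3 without single libraries. There ITGA2B gained a call with no trend and no robust option (adjusted p = 0.0442) and ITGAE without BSGL replicate 1 (adjusted p = 0.0419). Under BSGL 1 member was called, higher, by limma-voom on recovered fragments, and 0 by limma under the other alternatives. Over all genes BSGL had 11 calls, with 31 by voom, 11 with another pseudocount or quantile scaling, and 0 to 2 without single libraries, with only the compared groups, no filter, a common sum, the replicate block or no trend and robust options. With the replicate number as a block, 13 members were called for RSGL against control and 13 against BSGL, and 0 for BSGL against control. Replicate numbers did not pair the libraries (correlations of deviations of same-numbered libraries -0.21 to 0.12).

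Signs turned only in differences that did not pass. For RSGL against control, a common sum gave -0.014 for ITGB1 and -0.027 for LAMA3, and quantile scaling gave -0.0037 for LAMA3. Without single libraries LAMA3 lay at -0.0196 to 0.0563 and LAMA5 at -0.115 to 0.00985. For BSGL against control, a common sum gave -0.017 for ITGB1 and -0.00050 for LAMB1, and quantile scaling -0.011 for ITGB1. Without single libraries ITGB1 lay at -0.00383 to 0.035 and LAMA5 at -0.101 to 0.0316. For RSGL against BSGL, quantile scaling gave 0.018 for LAMA5. Without single libraries LAMA5 lay at -0.0702 to 0.037, LAMB2 at -0.0552 to 0.0284, ITGB1 at -0.00112 to 0.0281 and ITGB2 at -0.104 to 0.0593. The cause was not tested.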
